A study of Homo sapiens with 8 samples.

Results

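The 4 human tropomyosin genes, TPM1, TPM2, TPM3 and TPM4, were followed through selective ribosome profiling of TRiC and prefoldin (PFD), in which mRNA fragments covered by ribosomes are sequenced from all ribosomes and from those pulled down with a chaperone. They are all members of the family by symbol among the 60664 gene identifiers counted, and each had enough counts to enter all fits. TPM4 was chosen by its measured values, a lower share in the PFD pulldown only, so its values are given here as a description, without a test. The other 3 genes were taken as the rest of the family.

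The libraries, 2 replicates in each of 4 groups, came from the human osteosarcoma line U-2 OS. For TRiC input and TRiC pulldown, a monoclonal line carried a HaloTag knocked into a loop of the chaperonin subunit CCT4. For PFD input and PFD pulldown, a clonal line carried a HaloTag at the C terminus of endogenous PFD4 (PFDN4-Halo). All groups received cycloheximide (100 µg per ml, 1 min), which holds ribosomes on the mRNA, and the crosslinker DSP (2 mM, 30 min). Input was total RNA of the ribosome pellet, and pulldown was what anti-HaloTag beads recovered from such pellets. Each tag was studied in 1 line, so tag, clone and library preparation cannot be told apart where lines are compared. The p-values measure the spread between the replicate samples of each group.

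Total counts ran from 9523128 to 32637658 per library, with PFD input replicate 2 and PFD pulldown replicate 1 the shallowest. The common dispersion, a measure of the spread between replicates, was 0.0153 in the fit of TRiC and 0.331 in that of PFD. Of 6 mesenchymal and osteoblast markers, VIM, SPARC, RUNX2, FN1 and CD44 had counts throughout, and COL1A2 was at most 2.00 CPM. The summed CPM of 6 muscle markers was 0.517 to 3.49, that of 4 epithelial markers 10.1 to 30.9, and that of 4 leukocyte markers 0 to 0.391. Levels are in CPM, the usual per-library scaling of counts, with TMM-corrected library sizes that allow for differences in composition.

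Tropomyosins are coiled-coil proteins that pair and line up head to tail along actin filaments. There they set access for myosin, for cofilin and for crosslinkers, and in striated muscle they carry the troponin switch. Each gene gives several isoforms through alternative first exons and alternative splicing. Actin, the protein to which they bind, is a client of PFD and TRiC, the chaperones that hand over and enclose newly made chains.

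On hg38, with GENCODE 44 gene models, TPM1 (ENSG00000140416) lies at chr15:63042620-63071915 on the plus strand. TPM2 (ENSG00000198467) lies at chr9:35681992-35690056 on the minus strand. TPM3 (ENSG00000143549) lies at chr1:154155308-154194648 on the minus strand. TPM4 (ENSG00000167460) lies at chr19:16067021-16103002 on the plus strand. Their reference (MANE Select) coding sequences encode 284, 284, 285 and 248 amino acids, so that of TPM4 is the shortest. The annotation holds 19 complete coding transcripts of TPM1, 4 of TPM2, 10 of TPM3 and 6 of TPM4. The deposited values are 1 count per gene, so neither isoforms nor positions along the mRNA can be read from them.

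The genes are close relatives, and a footprint is short. Coding identity ran from 69.8% between TPM1 and TPM4 to 80.1% between TPM3 and either TPM1 or TPM2. A stretch of 30 bases with few differences between the 4 coding sequences is shown as an example, not as the closest of all stretches. It lets the reader see how footprints of these genes differ. It lies in exon 4 of TPM1, TPM2 and TPM3 and in exon 3 of TPM4. Capitals mark bases that differ from TPM1, and each line is in the sense of the mRNA, 5′ to 3′.
TPM1 (chr15:63059630-63059659, plus strand): ctgaaagaggccaagcacattgctgaagat
TPM2 (chr9:35685455-35685484, minus strand): ctgaaGgaggccaagcacatCgctgaGgat
TPM3 (chr1:154173105-154173134, minus strand): ctCaaagaAgcTaagcacattgcAgaagaG
TPM4 (chr19:16086490-16086519, plus strand): ctCaaagaggccaagcacattgcGgaagaG

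In this stretch TPM2, TPM3 and TPM4 differ from TPM1 at 3, 5 and 3 bases. Mapping kept reads with 1 genomic position and allowed up to 2 mismatches. Here each of the other genes was thus apart from TPM1 by more than the mismatches allowed. Other stretches were closer, as 9 windows of 30 bases were identical in TPM1 and TPM2, and 6 in TPM2 and TPM4. Exact sharing between the 4 genes was rare. Of all windows of 30 bases along each reference coding sequence, 1.09% of TPM1, 1.82% of TPM2, 0.483% of TPM3 and 0.975% of TPM4 recurred in another tropomyosin gene.

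Processed pseudogenes are another matter, since they hold near copies of the spliced mRNA. No window of TPM1 and 0.847% of those of TPM2 recurred in a tropomyosin pseudogene, against 30.2% for TPM3 and 57.8% for TPM4. A read from such a window has more than 1 genomic position and would not be kept. An example in TPM3, in its exon 3, recurs in TPM3P8.
TPM3 (chr1:154176189-154176218, minus strand): aggatccagctggttgaagaagagctggac
TPM3P8 (chr2:230573720-230573749, minus strand): aggatccagctggttgaagaagagctggac
For TPM4 an example lies in exon 2 and recurs in TPM4P2.
TPM4 (chr19:16081919-16081948, plus strand): ggtgatgtggccgccctcaaccgacgcatc
TPM4P2 (chr3:27633112-27633141, plus strand): ggtgatgtggccgccctcaaccgacgcatc

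Levels of TPM3 and TPM4 set beside those of TPM1 and TPM2 leave out such reads. The copies are the same in every library, and their part in the differences between groups was not tested. The 13 tropomyosin pseudogenes together held 0.525 to 6.33 CPM per library. Of 4 tested in the TRiC pulldown, 1 was called higher, beside 8.64% of all genes. This was TPM3P9 (log2 fold change 1.88, SE 0.52, edgeR adjusted p = 0.0161). It had 15 and 21 counts in the TRiC inputs and 85 and 51 in the pulldowns. Its call was lost in a fit of all 8 libraries, and the counts of list genes further on leave it out.

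The first comparison asks how the family is made up in each line. TPM1 was the main tropomyosin of the TRiC line and TPM2 that of the PFD line. In the TRiC inputs, TPM1 gave 60.1% ± 0.00955 (SD, n = 2) of all tropomyosin counts and TPM2 gave 30.0% ± 0.0331. In the PFD inputs, TPM1 gave 28.8% ± 0.282 and TPM2 gave 49.7% ± 1.18. TPM3, a member made in most cell types, held 7.59% ± 0.114 in the TRiC and 10.7% ± 0.0146 in the PFD inputs. TPM4, a non-muscle member, held 2.25% ± 0.0718 in the TRiC inputs and 10.8% ± 0.917 in the PFD inputs.

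The pulldowns kept the order of TPM1 and TPM2 of their line. In the TRiC pulldowns, TPM1 held 63.3% ± 0.932, TPM2 25.6% ± 1.22, TPM3 7.79% ± 0.167 and TPM4 3.23% ± 0.451. In the PFD pulldowns, TPM1 held 31.9% ± 2.98, TPM2 54.7% ± 1.16, TPM3 10.4% ± 1.84 and TPM4 2.98% ± 0.0223. With 2 replicates against 2, an exact permutation test cannot reach the threshold, and none was made on these shares.

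**Figure D1:**
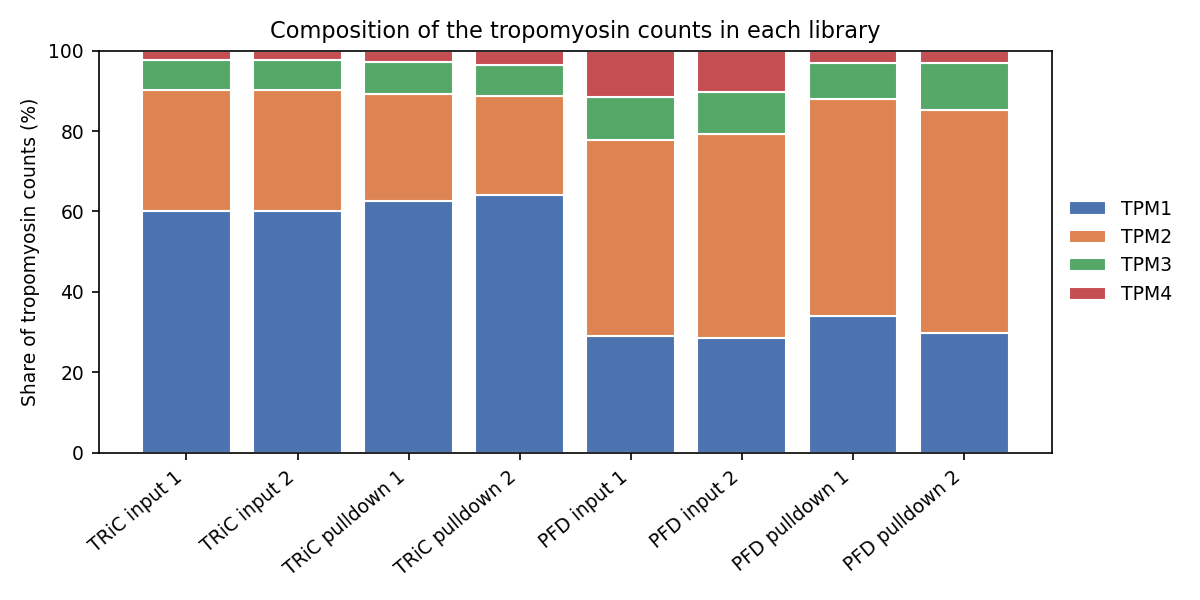
Share of TPM1, TPM2, TPM3 and TPM4 (colours) among all tropomyosin counts (y axis, percent) in each of the 8 libraries (x axis). TPM1 makes up most of the bar in the 4 TRiC libraries and TPM2 the largest piece in the 4 PFD libraries, and the TPM4 piece is thick in the 2 PFD inputs only.

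Summed over the family, tropomyosin footprints were highest in the TRiC inputs and lowest in the TRiC pulldowns. The sum was 1416 ± 45.2 CPM in the TRiC inputs and 1250 ± 34.5 CPM in the PFD inputs. It was 1153 ± 12.2 CPM in the TRiC pulldowns and 1262 ± 58.1 CPM in the PFD pulldowns. A footprint count joins the amount of an mRNA with the number of ribosomes on it, and these cannot be told apart here.

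Between genes, levels are compared per kilobase of reference coding sequence. In the TRiC inputs the order was TPM1 (996 ± 32.0 CPM per kilobase), TPM2 (497 ± 16.4), TPM3 (125 ± 2.11) and TPM4 (42.7 ± 2.72), each step larger than the spread. In the PFD inputs it was TPM2 (727 ± 2.78), TPM1 (421 ± 15.8), TPM4 (181 ± 20.3) and TPM3 (155 ± 4.08). The step between TPM4 and TPM3 there was close to the spread of TPM4. In the TRiC pulldowns the levels were 854 ± 3.53 for TPM1, 346 ± 20.1 for TPM2, 105 ± 3.35 for TPM3 and 49.9 ± 6.43 for TPM4. In the PFD pulldowns they were 469 ± 22.3, 808 ± 54.3, 154 ± 34.2 and 50.4 ± 1.94 CPM per kilobase. The order of TPM1 and TPM2 in the TRiC line depends on the length used, since TPM1 has long untranslated exons. Per kilobase of all annotated exons TPM2 (134) stood above TPM1 (57.9) in the TRiC inputs.

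The next comparison sets the inputs side by side, where TPM1 and TPM2 differed in opposite directions. TPM1, which makes the long muscle tropomyosin as well as stress fibre isoforms, stood at 832 and 871 CPM in the TRiC inputs and at 369 and 350 CPM in the PFD inputs. The groups did not overlap, and the PFD inputs were lower by 2.30-fold (log2 fold change −1.20, SE 0.06, edgeR adjusted p = 0.000223). TPM2, a member of muscle and stress fibres, stood at 415 and 435 CPM in the TRiC and at 623 and 620 CPM in the PFD inputs. Its groups did not overlap either, and it was higher in the PFD line (log2 fold change 0.59, SE 0.06, edgeR adjusted p = 0.00109).

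TPM3 moved with TPM2 but by less. It stood at 106 and 109 CPM in the TRiC inputs and at 136 and 131 CPM in the PFD inputs, again without overlap. The rise was 1.28-fold (log2 fold change 0.35, SE 0.08, edgeR adjusted p = 0.0185). That call was lost when either TRiC input was left out (adjusted p = 0.226 without replicate 1 and 0.162 without replicate 2) and in a fit of all 8 libraries (0.125).

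TPM4 stood at 30.5 and 33.4 CPM in the TRiC inputs and at 146 and 124 CPM in the PFD inputs. Its log2 difference was 2.13 (SE 0.12), or 4.37-fold. That is a description, since TPM4 was picked on values that include its PFD inputs. Of the 3 genes tested, 2 were higher and 1 was lower in the PFD inputs. Among all 16341 genes tested in this comparison, 40.3% were called, 17.7% higher and 22.6% lower, so a call here is common. The median log2 difference over all genes was −0.11. The lines also differed in marker genes, and the part of this in the tropomyosin values was not tested. Of the 6 mesenchymal and osteoblast markers, FN1 (2.85), CD44 (2.62) and VIM (0.21) were higher and SPARC (−0.47) was lower in the PFD inputs. Of the 4 epithelial markers, KRT14 (3.21) was higher. KRT5 had 101 to 103 counts in the TRiC inputs and 0 to 3 in the PFD inputs, and the muscle marker DES had 32 to 49 and 0; both passed the filter on low counts only through the TRiC inputs.

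**Figure D2:**
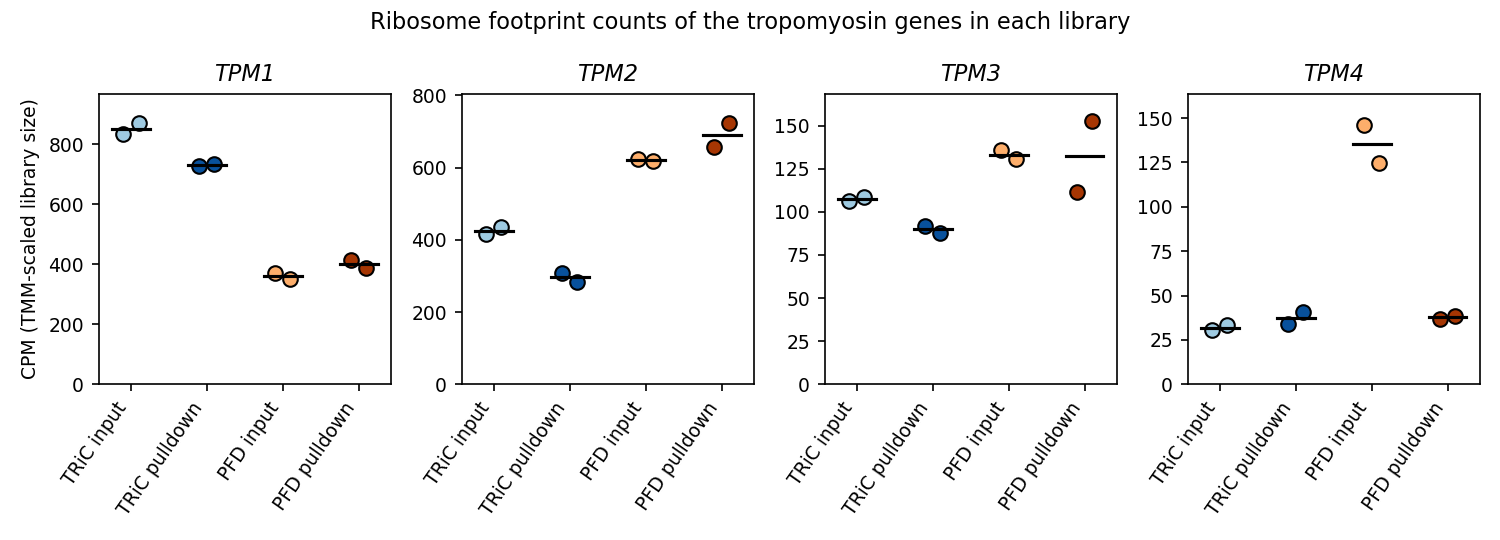
CPM with TMM-scaled library sizes (y axis, from 0, one scale per gene) of the 4 tropomyosin genes in the 4 groups (x axis). Points are the 2 replicates and bars their mean; TPM1 is high in the TRiC line, TPM2 in the PFD line, and TPM4 is between 30.5 and 40.6 CPM in all libraries but the PFD inputs, at 124 and 146.

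The third comparison asks whether ribosomes translating tropomyosin were recovered with TRiC more or less than others. TPM1, TPM2 and TPM3 were all lower in the TRiC pulldown. TPM2 fell furthest, from 415 and 435 CPM in the inputs to 308 and 284 CPM in the pulldowns, by 1.43-fold (log2 fold change −0.52, SE 0.07, edgeR adjusted p = 9.58e-05). TPM1 went from 832 and 871 CPM to 728 and 732 CPM (log2 fold change −0.22, SE 0.06, edgeR adjusted p = 0.0220). TPM3 went from 106 and 109 CPM to 91.8 and 87.8 CPM (log2 fold change −0.26, SE 0.08, edgeR adjusted p = 0.0385). Inputs and pulldowns did not overlap for any of the 3.

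TPM4 stood at 30.5 and 33.4 CPM in the TRiC inputs and at 33.8 and 40.6 CPM in the pulldowns, a log2 difference of 0.22 (SE 0.12). Its pulldowns were thus above its inputs, while those of the other members were below. All 3 genes tested fell, where 19.2% of the 17934 genes tested were called, 10.6% lower and 8.64% higher. Counted from the lowest log2 fold change, TPM2 stood at percentile 8.84 of these genes, TPM3 at 24.3 and TPM1 at 27.9. The median log2 fold change over all genes was −0.0032. A pulldown value is a share of the recovered footprints, so it says how a gene stands against the bulk of genes, not how much was bound.

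These calls rest on the processing. In the fit of all 8 libraries all 3 were lost, TPM2 with an edgeR adjusted p of 0.0724. The log2 fold changes there stayed at −0.22 for TPM1, −0.52 for TPM2 and −0.26 for TPM3. With cyclic loess scaling and limma-trend the log2 fold changes were −0.06 (adjusted p = 0.534) for TPM1, −0.17 (adjusted p = 0.150) for TPM3 and −0.39 for TPM2, which was still called there. Without TRiC input replicate 1 or 2 the adjusted p of TPM1 was 0.129 or 0.252 and that of TPM3 was 0.224 or 0.255; TPM3 was also lost without TRiC pulldown replicate 2 (0.0821).

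In the PFD pulldown, none of TPM1, TPM2 and TPM3 passed the test. TPM1 had 369 and 350 CPM in the inputs and 415 and 388 CPM in the pulldowns (log2 fold change 0.15, SE 0.11, edgeR adjusted p = 0.898). TPM2 had 623 and 620 CPM against 658 and 724 CPM (log2 fold change 0.14, SE 0.09, edgeR adjusted p = 0.867). TPM3 had 136 and 131 CPM against 111 and 153 CPM (log2 fold change −0.03, SE 0.17, edgeR adjusted p = 0.996).

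For TPM1 and TPM2 the pulldowns lay above the inputs without overlap, and for TPM3 the pulldowns lay on either side of the inputs. At an unadjusted p under 0.05 in edgeR, and with DESeq2 or limma after adjustment, 0 of the 3 genes passed as well. Calls were rare in this comparison, at 0.241% of 14111 genes tested, 0.0496% higher and 0.191% lower, so most genes had no call either.

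TPM4 is described here by the values for which it was picked. It went from 146 and 124 CPM in PFD input to 36.6 and 38.7 CPM in PFD pulldown. The log2 difference was −1.86 (SE 0.19), or 3.63-fold lower. These values rest on 2823 and 1304 counts for the inputs, against 349 and 1066 for the pulldowns.

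The PFD inputs are the libraries in which TPM4 stands apart. Its PFD pulldown mean, 37.6 ± 1.45 CPM, lay beside those of the TRiC pulldowns, 37.2 ± 4.80 CPM, and the TRiC inputs, 31.9 ± 2.03 CPM. The lower PFD input was 3.06 times the highest of the other 6 libraries, and 10 genes had a larger ratio. Of 9456 genes with a mean of at least 10 CPM, 11 had both PFD inputs at least 3-fold above the highest other library. Another 9 had both at least 3-fold below the lowest.

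The strand of the reads bears on TPM4, because 17.7% of its reference coding bases lie under an exon of a gene on the opposite strand, ENSG00000279198. That gene had 58 and 35 counts in TRiC input and 80 and 32 in TRiC pulldown. In PFD input it had 16 and 1, and in PFD pulldown 1 and 47. Which strand column the deposited counts hold is not given in the sources used here, and its part in the TPM4 values was not tested. TPM1 has 22.7% of its exon bases, none of them in its reference coding sequence, under opposite-strand exons. Of the genes there, TPM1-AS had at most 14 counts. No exon base of TPM2 or TPM3 lies under such an exon.

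**Figure D3:**
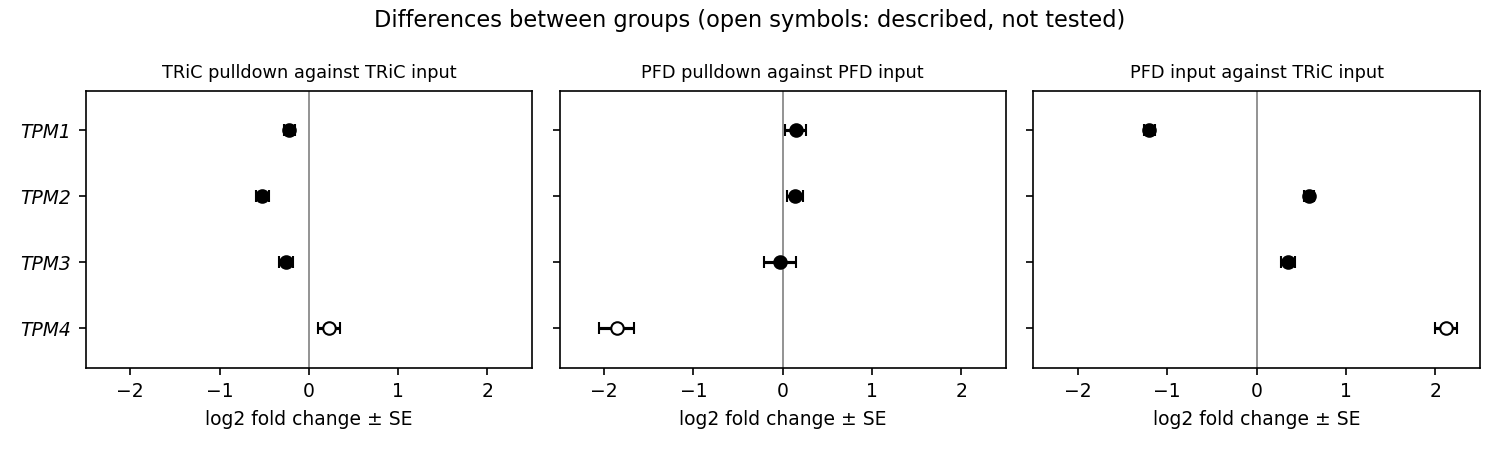
Log2 fold change with its SE (x axis) of each tropomyosin gene in the 3 comparisons between groups, from edgeR; filled symbols were tested and open symbols (TPM4) are a description. TPM1, TPM2 and TPM3 lie at −0.22, −0.52 and −0.26 in the TRiC pulldown and near 0 in the PFD pulldown, and TPM4 is at −1.86 in the PFD pulldown and 2.13 between the inputs.

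Whether the pulldowns differ from each other was tested as an interaction over all 8 libraries, taking the PFD log2 fold change minus that of TRiC. It was 0.65 (SE 0.11, edgeR adjusted p = 0.121) for TPM2, 0.35 (SE 0.11, edgeR adjusted p = 0.235) for TPM1 and 0.22 (SE 0.21, edgeR adjusted p = 0.677) for TPM3. Of the 3 genes, 0 passed after adjustment in edgeR. At an unadjusted p under 0.05 stood 2 of the 3, beside 2791 of all 18855 genes tested. The interaction called 0.0371% of all 18855 genes tested, 0.0159% higher and 0.0212% lower.

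DESeq2 called both TPM2 (adjusted p = 1.04e-09) and TPM1 (adjusted p = 0.0331). Over all genes it called 536 higher and 481 lower. Limma with cyclic loess called neither TPM1 nor TPM2. Without PFD pulldown replicate 1 or 2 the edgeR difference was 0.71 or 0.56 for TPM2 and 0.29 or 0.38 for TPM1. Each of these fits leaves 1 PFD pulldown. TPM2 then passed, and so did TPM1 without replicate 2. For TPM4 the difference was −2.10 (SE 0.23), as a description.

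Other proteins of the actin filament are given next, to set the family beside its partners. Caldesmon and the calponins bind filaments together with tropomyosin. In the TRiC pulldown, 3 of the 4 genes fell and the fourth did not pass (median log2 fold change −0.28, against −0.0032 over all genes, of which 10.6% fell and 8.64% rose). CNN1 (−0.55), CNN2 (−0.30) and CNN3 (−0.26) fell, and with a replicate block CALD1 (−0.16) passed too (adjusted p = 0.0394). Between inputs, CALD1 (1.22), CNN3 (0.62) and CNN1 (0.41) were higher in the PFD line, as TPM2 was, where 17.7% of all genes were higher and 22.6% lower. The call of CNN1 was narrow, and it was lost with a replicate block (adjusted p = 0.0767), among other settings.

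Non-muscle myosin II, the motor of stress fibres, had 3 of 7 genes lower in the TRiC pulldown (median −0.20, with 10.6% of all genes lower), namely MYL9 (−0.45), MYH14 (−0.40) and MYH9 (−0.29). With a replicate block MYL6 (−0.17, adjusted p = 0.0204) and MYL12B (−0.17, adjusted p = 0.0215) passed as well, as they did without TRiC pulldown replicate 1 (0.0181 and 0.0269). Between inputs its genes split, with 6 of 7 called against 40.3% of all genes, and 5 with cyclic loess and limma. The heavy chain MYH9 (0.37) and the light chain MYL12B (0.32) were higher in the PFD line, and MYH14 (−1.31), MYH10 (−0.92), MYL6 (−0.56) and MYL9 (−0.41) were lower.

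Crosslinkers and severing proteins had 4 of 7 genes lower in the TRiC pulldown (median −0.20), again beside 10.6% of all genes. These were cofilin CFL1 (−0.39), fascin FSCN1 (−0.38) and the alpha-actinins ACTN1 (−0.20) and ACTN4 (−0.19). Between inputs, ACTN4 (0.68), DSTN (0.57), CFL1 (0.56) and ACTN1 (0.48) were higher in the PFD line and FSCN1 (−0.22) was lower, 5 of 7 called against 40.3% of all genes.

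SRF and its cofactor MRTF switch on many actin cytoskeleton genes when actin monomers are scarce. Of 12 such targets, which share CNN1 and MYL9 with the lists above, 5 fell in the TRiC pulldown and 0 rose in edgeR (median −0.25), beside 10.6% of all genes lower and 8.64% higher. With cyclic loess and limma VCL, vinculin, was called higher (0.22, adjusted p = 0.0177), and with a replicate block CCN1 was called lower (−0.16, adjusted p = 0.0127). Between inputs, 9 were higher in the PFD line, led by TAGLN (1.41), CCN2 (1.24), FHL2 (1.12) and CCN1 (1.04), and MYL9 was lower, while 17.7% of all genes were higher. Called in either direction were 10 of the 12 in edgeR and 7 with cyclic loess and limma. The median of these 12 differences was 0.63, against −0.11 over all genes. TPM1, lower by 2.30-fold, stood on the other side of the bulk of that list.

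The genes of the muscle-type filament were low or uneven. Tropomodulins cap the ends of tropomyosin-coated filaments, and the leiomodins were listed with them. Of their 7 genes, TMOD3 made up nearly all the counts, at 80.2 to 121 CPM, and 0 of 5 tested passed in the TRiC pulldown in edgeR, at an unadjusted p under 0.05, in DESeq2 or in limma. Between inputs LMOD1 was called lower in the PFD line (adjusted p = 0.0163), but it had 0 counts in both PFD inputs, passed the filter only through the TRiC inputs, and lost the call with the replicate block (0.0745) and cyclic loess (0.134). Troponins, which act on tropomyosin in striated muscle, were seen mainly as TNNC1 and TNNT1. TNNC1 had 169 and 173 CPM in the TRiC inputs and 15.3 and 16.3 CPM in the PFD inputs. TNNC1 (−0.49) and TNNT1 (−0.42) also fell in the TRiC pulldown, 2 of 6 tested beside 10.6% of all genes. Between inputs, TNNC1 (−3.39) and TNNT1 (−2.07) were lower in the PFD line, as TPM1 was, where 22.6% of all genes were lower. TNNI1 and TNNT2 were also called lower, but they passed the filter on low counts only through the TRiC inputs. TNNI1 had 31 to 35 counts there and 0 in both PFD inputs, and TNNT2 had 215 to 233 there and 0 and 10 in the PFD inputs. The call of TNNI1 was lost with the replicate block (adjusted p = 0.115) and with cyclic loess (0.260), and that of TNNT2 in the fit of all 8 libraries (0.0965).

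In the PFD pulldown, edgeR called 0 genes of all of these lists, where 0.241% of all genes were called. At an unadjusted p under 0.05 in edgeR stood 978 of all 14111 genes tested. The highest count in a list was 2 of the 12 SRF and MRTF targets. Of the 7 crosslinkers and severing proteins, 1 also had such a p. DESeq2 called 1 gene in each of these lists, beside 256 genes higher and 295 lower in all. Limma with cyclic loess called 1 of the crosslinkers and severing proteins, beside 14 genes higher and 43 lower in all. In edgeR the lowest log2 fold change of that list was −0.57, of CFL1 (adjusted p = 0.0610). The calls in the TRiC pulldown had small fold changes, and with cyclic loess and limma 1 of the 4 caldesmon and calponin genes, 2 of the 7 myosin II genes and 2 of the 7 crosslinkers and severing proteins passed, as did 5 of the 12 SRF and MRTF targets (VCL, higher, among them) and 2 of the 6 troponins tested. ACTN1, for example, stood at −0.016 with that scaling. Of 15 list genes called in the TRiC pulldown, 7 lost the call without TRiC input replicate 1 (CNN1, CNN2, CNN3, MYH14, ACTN1, ACTN4 and CCN2, adjusted p = 0.0746 to 0.351). Without TRiC input replicate 2, 5 of them lost it (the 7 less CNN1 and MYH14, adjusted p = 0.100 to 0.209), and without TRiC pulldown replicate 2, 4 (CNN2, ACTN1, ACTN4 and CCN2, 0.0611 to 0.231). In a fit of all 8 libraries together, all 15 calls were lost. The log2 fold changes hardly moved there, with CNN1 at −0.55 and CFL1 at −0.39. Scaling to unadjusted library totals lost 5 of the 15 (the same as without TRiC input replicate 2, adjusted p = 0.0785 to 0.255), with at least 100 counts per library 3 (ACTN1, ACTN4 and CCN2) and with no filter 1 (ACTN4). Between inputs, where only the 20 called list genes with the largest differences (up to 4 per list) were followed through the alternatives, 4 calls (CNN1, DSTN, LMOD1 and TNNI1) were lost without TRiC input replicate 1 and 3 of them (all but DSTN) without replicate 2.

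**Figure D4:**
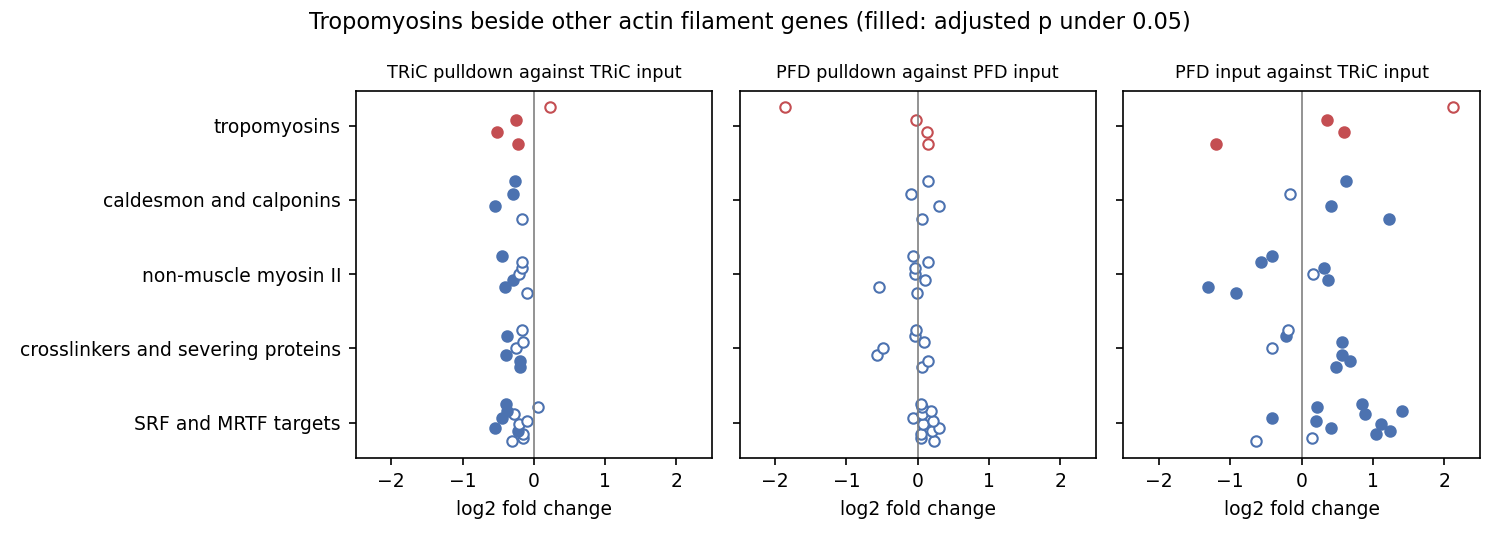
Log2 fold change (x axis) of the tropomyosins (red) and of genes in 4 lists of actin filament genes (blue) in 3 comparisons; each point is a gene and filled points have an edgeR adjusted p under 0.05, with TPM4 open because it was not tested. In the TRiC pulldown the filled points all lie below 0, and between the inputs they lie on both sides, with TPM1 at −1.20.

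Genes with the most similar pattern were found by Pearson's r of log2(CPM + 1) over the 8 libraries, among the 9456 genes with a mean of at least 10 CPM. The 8 points share their libraries and the difference between lines, so r is a description. For TPM1 they were SEPTIN6 (r = 0.997), TMSB4X (0.997) and MAP1A (0.996). TMSB4X, thymosin beta 4, binds actin monomers, and it had 161 and 184 CPM in the TRiC inputs and 25.8 and 21.5 CPM in the PFD inputs.

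For TPM2 they were the myosin heavy chain MYH9 (r = 0.996), DYNLL2 (0.995) and EIF3D (0.995). For TPM3 they were PABPC4 (0.995), SPCS1 (0.993) and PLD3 (0.991). TPM4 was most like SRSF2 (0.990), then CYRIB and ENTPD7 (0.967 each). SRSF2, a splicing factor, had 508 and 514 CPM in the PFD inputs and 31.8 to 53.3 CPM in the other 6 libraries, the same shape as TPM4 with a larger step. Among the members, TPM2 and TPM3 were alike (r = 0.915) and TPM1 ran against TPM2 (r = −0.831).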

How the data were processed

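Ribosome-protected fragments were measured in 8 U-2 OS libraries. Per the methods, the authors trimmed and demultiplexed reads, used UMI-tools for duplicates, removed non-coding RNA with Bowtie2 2.4.2 and aligned the rest to hg38 with STAR 2.7.10a (up to 2 mismatches, unique alignments only). The deposited values are raw counts per gene, in a table per line. The annotation release is not given in the sources used here. Of 60664 identifiers, 60463 are in GENCODE 44 and 201 are not.

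Each comparison was fitted to all genes with edgeR 4.0.16 in R 4.3.3 (TMM, filterByExpr, quasi-likelihood test, Benjamini-Hochberg adjusted p under 0.05, no replicate block). The interaction used all 8 libraries and the others used 4. Alternatives were DESeq2 1.42.0, a replicate block, library totals, cyclic loess with limma 3.58.1, no filter, at least 100 counts per library, all 8 libraries together and leaving out each library. Fits were also run on simulated counts, with changes larger than those of the tropomyosins called in the TRiC pulldown. No result of that is used here. CPM used TMM sizes over the 8 libraries. Windows of 30 bases were matched exactly on both strands.

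All 4 members were named. Genes of each list were named if among its 4 most abundant or past the threshold (up to 4 per comparison by size), and 3 genes were named for each member by likeness; some genes this rule allows are given only in counts. Members and lists were chosen with earlier results of these data known.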

Additional observations from a re-analysis of the deposited data

Results flagged for a closer look

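For TPM1 and TPM2, both TRiC pulldowns lay below both TRiC inputs and both PFD pulldowns lay above both PFD inputs. The difference between the log2 fold changes, PFD minus TRiC, was 0.35 for TPM1 and 0.65 for TPM2, and it did not pass in edgeR (adjusted p = 0.235 and 0.121).

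TPM4 ran the opposite way, above its inputs in the TRiC pulldowns and below them in the PFD pulldowns. Its difference was −2.10, and it was not tested because TPM4 was picked on these values.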

How the results depend on the processing

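In the TRiC pulldown, TPM1 (main −0.22) was no longer called with library totals (−0.17), cyclic loess (−0.061), at least 100 counts (−0.15) or all 8 libraries (−0.22). TPM3 (main −0.26) was lost with the same settings (−0.21, −0.17, −0.19 and −0.26) and TPM2 with all 8 libraries (−0.52). TPM3 between inputs was lost with all 8 libraries (0.35). The interaction passed for TPM1 (0.36) and TPM2 (0.65) with DESeq2 and for TPM2 with no filter (0.68). All other planned settings kept the call and the direction of TPM1, TPM2 and TPM3, leaving out a library aside, and TPM4 kept its direction throughout.

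Leaving out each library in turn gave, in the TRiC pulldown, −0.24 to −0.20 for TPM1, −0.28 to −0.23 for TPM3 and 0.078 to 0.36 for TPM4. In the PFD pulldown TPM1 ran from 0.048 to 0.23 and TPM3 from −0.23 to 0.14, turning with PFD pulldown replicate 1 left out. Between inputs TPM3 ran from 0.30 to 0.36. The interaction ran from 0.29 to 0.41 for TPM1, 0.56 to 0.71 for TPM2 and −0.045 to 0.42 for TPM3, turning without PFD pulldown replicate 2.

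Counts of called genes, higher and lower, were 1550 and 1894 in the TRiC pulldown, 16 and 15 with all 8 libraries, and 797 to 1994 and 748 to 2704 with a library left out. In the PFD pulldown they were 7 and 27, against 44 and 90 with the replicate block, 256 and 295 with DESeq2, 14 and 43 with cyclic loess, 59 and 93 with no filter, 27 and 56 with all 8 libraries, and 28 to 1081 and 43 to 1353 with a library left out. Between inputs they were 2898 and 3685, against 1872 and 1986 with all 8 libraries, and 1791 to 4702 and 1835 to 6382. For the interaction they were 3 and 4, against 536 and 481 with DESeq2 and 298 and 213 with no filter; lower genes were 2 with cyclic loess and 10 with at least 100 counts, and the ranges were 0 to 1442 and 0 to 2489. The cause was not tested.

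Shares of TPM1, TPM2, TPM3 and TPM4 in the TRiC inputs were 59.9%, 29.9%, 7.82% and 2.41% with pseudogene counts added, and per kilobase those of TPM1, TPM2 and TPM4 were 59.96%, 29.9% and 2.57%. With pseudogenes, TPM3 held 8.07% of the TRiC pulldown and 10.8% of the PFD input, and TPM4 3.08% of the PFD pulldown. Per kilobase TPM4 held 3.68% of the TRiC pulldown, 12.2% of the PFD input and 3.40% of the PFD pulldown, and TPM1 and TPM3 held 28.4% and 10.5% of the PFD input. With library totals TPM1 had 869.6 CPM per kilobase for the TRiC pulldown and TPM2 738.8 for the PFD input. Per kilobase of all exons TPM1 had 57.9, 49.7, 24.5 and 27.3 CPM (input and pulldown of TRiC, then of PFD), TPM2 134, 92.9, 195 and 217, TPM3 7.10, 5.93, 8.80 and 8.73, and TPM4 2.58, 3.01, 10.9 and 3.04.

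Among the named list genes in the TRiC pulldown, cyclic loess turned MYH10 (0.025), CCN1 (0.011) and FLNA (0.13). With a library left out TMOD2 (−0.71 to 0.16), TMOD1 (−0.19 to 0.31), LMOD1 (−0.44 to 0.12) and FLNA (−0.21 to 0.0099) turned. None of these was called with the main settings. CCN1 was called with the replicate block (adjusted p = 0.0127), and CCN1 (0.0119) and FLNA (0.000748) without TRiC pulldown replicate 1. Between inputs, no filter moved the median of all genes by −0.88, cyclic loess by 0.14 and at least 100 counts by 0.12.

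Replicates with the same number correlated at 0.0587, −0.0089 and 0.0458 in their deviations, which shows little shared variation, and the labels do not say that a number marks one pellet. With the replicate block the log2 fold changes in the TRiC pulldown were −0.22, −0.52 and −0.26 for TPM1, TPM2 and TPM3, and no call of these 3 changed in any comparison. Fits without a library leave 1 sample in a group, which is assumed to vary like the others.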
